A study of Mus musculus with 8 samples.

Results

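Villi of the small intestine are lined by enterocytes whose apical face is packed with microvilli, the brush border. Each microvillus holds a bundle of parallel actin filaments, crosslinked by villin, espin and plastin 1 and capped at its tip by Eps8, with ezrin and myosin 1a tying the bundle to the membrane. Neighbouring microvilli are joined at their tips by the protocadherins Cdhr2 and Cdhr5, which are held from inside by a complex of harmonin (Ush1c) and myosin 7b. The transcripts of these 10 genes, Vil1, Espn, Pls1, Eps8, Ezr, Myo1a, Cdhr2, Cdhr5, Ush1c and Myo7b, are described here in the ileum. They were taken as every probe set whose only platform symbol was one of these names, which gave 12 of 45037 probe sets, and 10 of 17097 genes: Eps8 had 3 probe sets and each of the others 1.

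The samples were ilea of 4 Slc51a knockout and 4 wild-type mice, all males of about 2 months on a C57BL/6 background, fasted for 4 h and killed under ketamine-xylazine. Slc51a encodes the alpha subunit of the OST transporter, which carries bile acids out of the enterocyte toward the blood. The labels name neither the allele nor the pieces of ileal wall taken, and do not say whether the wild-type mice were littermates. Each sample was labelled from 250 ng of total RNA and hybridised to 1 Affymetrix 3' expression array, and values are normalised log2 signals, so that 1 unit is a doubling. The Slc51a signal was 4.67, 4.50, 4.68 and 4.56 in the knockout samples and 11.36, 11.41, 11.29 and 11.37 in the wild-type samples. The 8 arrays had medians of 4.56 to 4.60. Each difference is the knockout mean minus the wild-type mean (n = 4 each), given with its standard error (SE) or 95% confidence interval. Adjusted p values are those of limma over all 45037 probe sets, with a threshold of 0.05. A gene with several probe sets is counted by its brightest one.

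All but 1 of the 10 microvillus genes were lower in the knockout ileum and passed the test, and the other, Ush1c, lay lower without passing. The falls were small for the actin bundle proteins villin and espin and largest for the protocadherins, Cdhr2 standing at 52.2% and Cdhr5 at 61.4% of the wild-type signal. Of the 10 genes, 9 fell, 0 rose and 1 did not pass, where 12.0% of all genes fell and 16.3% rose. With cyclic loess normalisation 14.6% of all genes fell and 13.8% rose, so the balance over all genes depends on the scaling. By limma 0 of the 10 were higher at an unadjusted p below 0.05, and 10 were lower by that measure, where 21.8% of all genes were higher and 17.3% lower. The knockout and wild-type samples did not overlap for any of the 10, with all knockout signals below all wild-type signals, an ordering found in 12.8% of all genes. Their median difference was -0.36, with a range of -0.94 to -0.17, against a median of 0.01 over all genes. By probe set, 11 of 12 fell, where 9.81% of all probe sets fell. In a whole piece of tissue, fewer cells of a type and less RNA per cell cannot be told apart.

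**Figure D1:**
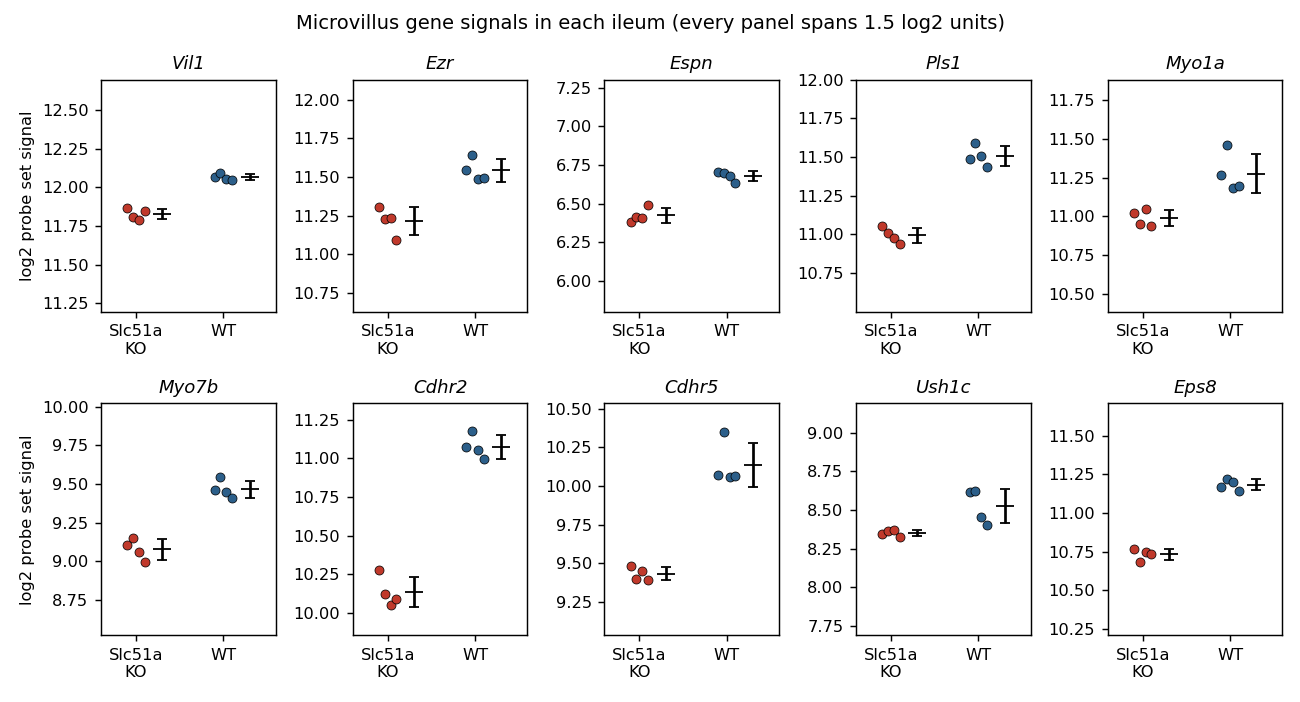
Log2 probe set signal (vertical axis) of the 10 microvillus genes in each Slc51a knockout (red, left) and wild-type (blue, right) ileum, with the mean and SD of the 4 samples beside the points. Every panel spans 1.5 log2 units, so heights can be compared between panels, and in each panel the red points lie below the blue ones, by most for Cdhr2 and by least for Ush1c.

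Villin (Vil1) bundles actin filaments and, at high calcium, severs them. Its signal was 11.87, 11.81, 11.79 and 11.85 in the knockout samples, against 12.07, 12.09, 12.05 and 12.05 in the wild-type samples. The groups were tight and lay 0.18 apart at their nearest points. Vil1 fell by 0.24 (SE 0.04, adjusted p = 0.00177), which left 84.8% of the wild-type signal. Espin (Espn), another bundler, was the dimmest of the set, at 6.38, 6.42, 6.41 and 6.49 in the knockout and 6.71, 6.70, 6.68 and 6.63 in wild type. It fell by 0.25 (SE 0.04, adjusted p = 0.00182), in a range where RMA, the normalisation used, compresses differences. Plastin 1 (Pls1), also called fimbrin, had signals of 11.05, 11.01, 10.98 and 10.94 in the knockout and 11.49, 11.59, 11.51 and 11.44 in wild type. Every knockout sample lay at least 0.38 below every wild-type sample. Pls1 fell by 0.51 (SE 0.05, adjusted p = 3.75e-05), to 70.2% of the wild-type signal, the largest fall among the 3 bundlers.

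Eps8 caps the fast-growing ends of actin filaments at the microvillus tip. Its brightest probe set read 10.77, 10.69, 10.74 and 10.74 in the knockout samples and 11.17, 11.22, 11.20 and 11.14 in the wild-type samples, and fell by 0.45 (SE 0.04, adjusted p = 3.72e-05). The identifier of this probe set marks possible binding to other transcripts. The other Eps8 probe sets fell by 0.41 (adjusted p = 0.000257) and by 0.42 (adjusted p = 0.000357), so the 3 readings of this gene lay within each other's confidence intervals.

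Ezrin (Ezr) links the actin core to membrane proteins. It stood at 11.31, 11.23, 11.23 and 11.09 in the knockout and at 11.54, 11.64, 11.48 and 11.49 in wild type. Ezr fell by 0.33 (SE 0.06, adjusted p = 0.00192). Myosin 1a (Myo1a) is the motor that bridges the bundle and the membrane along the sides of the microvillus. It stood at 11.02, 10.95, 11.05 and 10.94 in the knockout and at 11.27, 11.46, 11.18 and 11.20 in wild type, where replicate 2 lay above the other 3. Myo1a fell by 0.29 (SE 0.06, adjusted p = 0.00811), the weakest call among the genes that passed.

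The protocadherins fell most. Cdhr2 had signals of 10.28, 10.12, 10.05 and 10.09 in the knockout samples, against 11.07, 11.18, 11.05 and 10.99 in the wild-type samples. The nearest samples of the 2 genotypes were 0.71 apart, the widest gap among the 10 genes. Cdhr2 fell by 0.94 (SE 0.06, 95% confidence interval -1.07 to -0.80, adjusted p = 3.92e-06), the fall of rank 170 among 17097 genes. Cdhr5, which binds Cdhr2 across the gap between microvilli, had signals of 9.48, 9.40, 9.45 and 9.39 in the knockout and 10.07, 10.35, 10.06 and 10.06 in wild type. Wild-type replicate 2 stood above the other wild-type samples, and without it the difference was -0.63. Over all samples Cdhr5 fell by 0.70 (SE 0.07, adjusted p = 3.84e-05).

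The partners of the protocadherins inside the microvillus differed by less. Myo7b, the motor that carries the complex toward the tip, was at 9.10, 9.15, 9.06 and 8.99 in the knockout and at 9.46, 9.54, 9.45 and 9.41 in wild type. It fell by 0.39 (SE 0.05, adjusted p = 0.000283). Ush1c, the scaffold that binds the protocadherin tails, was at 8.34, 8.37, 8.37 and 8.33 in the knockout and at 8.62, 8.62, 8.45 and 8.41 in wild type. The wild-type samples were split into a higher and a lower pair, the lower one 0.03 above the nearest knockout sample. Its difference was -0.17 (SE 0.06, 95% confidence interval -0.30 to -0.05), with an adjusted p of 0.0556. Adjusted over 1 probe set per gene in place of all probe sets, it passed (adjusted p = 0.0440), and without wild-type replicate 4 it passed as well (-0.21, adjusted p = 0.0260). It did not pass without wild-type replicate 1 (-0.14, adjusted p = 0.141) or 2 (-0.14, adjusted p = 0.145), nor with the 3 arrays lowest in hybridization controls left out (-0.14, adjusted p = 0.316). Of 21 alternatives at the same threshold, 9 passed Ush1c.

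**Figure D2:**
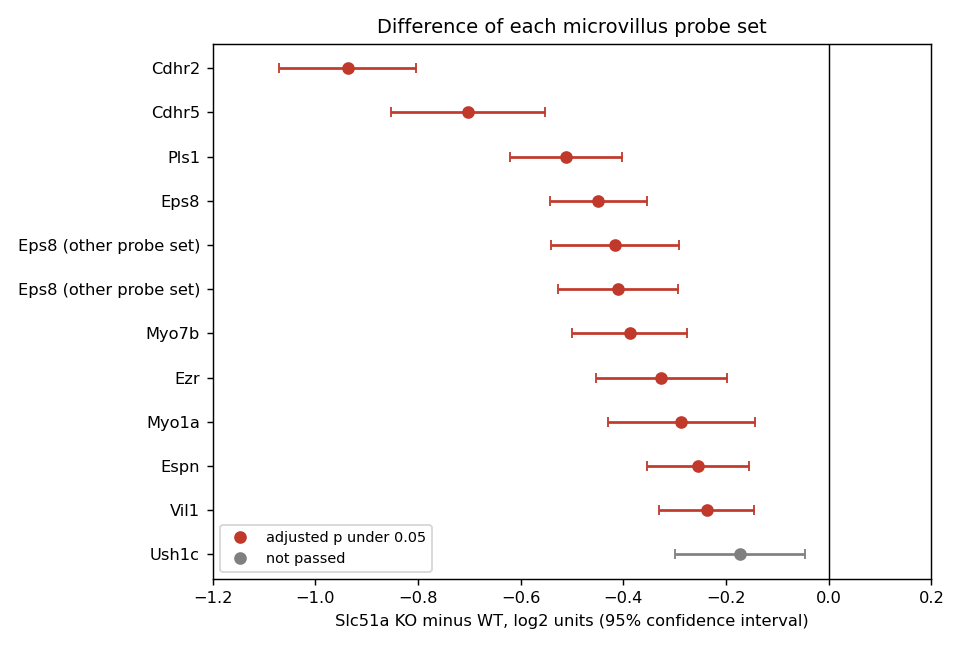
Difference in log2 signal (horizontal axis, Slc51a knockout minus wild type) of the 12 microvillus probe sets with 95% confidence intervals, ordered by size; red marks an adjusted p below 0.05 and grey Ush1c, which did not pass. The intervals run from -1.07 to -0.80 for Cdhr2 down to -0.30 to -0.05 for Ush1c, and the 3 Eps8 probe sets lie side by side.

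The falls of the members were set beside that of Vil1 by setting every array to its own Vil1 signal and refitting all probe sets. This step was added after the data were seen. Vil1 had the smallest fall of the members that passed, so the direction of most differences from it was fixed by that choice. The values describe how far each member lay from Vil1 and are no independent test of unequal falls. On that scale, where 4.97% of all genes were called lower, 5 members fell further than Vil1. Cdhr2 fell by 0.70 more (SE 0.05, adjusted p = 2.97e-06) and Cdhr5 by 0.47 more (SE 0.06, adjusted p = 0.000132). Pls1 fell by 0.27 more (adjusted p = 0.000562), Eps8 by 0.21 more (adjusted p = 0.00131) and Myo7b by 0.15 more (adjusted p = 0.0214). Ezr, Myo1a, Espn and Ush1c differed from Vil1 by -0.088 (SE 0.06), -0.049 (SE 0.06), -0.017 (SE 0.05) and 0.065 (SE 0.06), with adjusted p of 0.169, 0.476, 0.743 and 0.303, and did not pass.

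Across samples, wild-type replicate 2 was the highest wild-type array for 11 of the 12 probe sets, and wild-type replicate 4 the lowest for 8. Among the knockout arrays replicate 1 was the highest for 7 and replicate 4 the lowest for 6. The 3 arrays with the lowest hybridization controls were wild-type replicate 2 and knockout replicates 3 and 4, and replicate 3 was the highest knockout array for 3 probe sets and the lowest for 2. Without those 3 arrays 9 of the 10 genes fell, where 7.30% of all genes fell and 10.9% rose, with Cdhr2 at -0.84, Cdhr5 at -0.62 and Ezr at -0.24.

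Promoter sequences of the genes at both ends of this range, Cdhr2 and Cdhr5 with the largest falls and Vil1 with the smallest fall that passed, are shown to let the members be compared by sequence. Each is the 250 bases before a RefSeq transcript start on GRCm38.p6, written in the direction of the gene: Cdhr2 at chr13:54701213-54701462 (plus strand), Cdhr5 at chr7:141276787-141277036 (minus strand) and Vil1 at chr1:74409134-74409383 (plus strand). The Cdhr5 start lies inside the gene record, which reaches 9 bases into the stretch shown. Capitals mark letters that match a searched motif on either strand.
Cdhr2: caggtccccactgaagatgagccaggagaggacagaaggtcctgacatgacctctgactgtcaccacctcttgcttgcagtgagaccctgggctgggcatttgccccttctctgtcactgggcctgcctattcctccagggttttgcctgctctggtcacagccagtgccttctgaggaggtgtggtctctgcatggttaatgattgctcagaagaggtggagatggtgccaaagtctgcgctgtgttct
Cdhr5: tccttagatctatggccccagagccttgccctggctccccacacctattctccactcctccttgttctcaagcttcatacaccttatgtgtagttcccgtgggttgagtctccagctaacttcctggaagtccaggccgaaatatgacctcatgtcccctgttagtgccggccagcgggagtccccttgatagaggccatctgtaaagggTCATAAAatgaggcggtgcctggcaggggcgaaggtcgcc
Vil1: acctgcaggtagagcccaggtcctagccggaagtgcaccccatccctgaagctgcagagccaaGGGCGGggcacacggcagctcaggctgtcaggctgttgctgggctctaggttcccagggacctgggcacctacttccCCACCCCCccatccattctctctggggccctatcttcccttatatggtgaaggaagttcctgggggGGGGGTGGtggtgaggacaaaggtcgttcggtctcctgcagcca
The motifs were TTTATG and TTTATNA for the intestinal factor CDX2, CAAAGTCCA and CAAAGNNCA for HNF4A, GGGNGTGG for KLF factors and GGGCGG for SP1. The Cdhr5 stretch held TTTATG and TTTATNA on the reverse strand in 1 overlapping run that ends 34 bases before that transcript start; 10.8% and 12.8% of 32851 promoters of the same length held these motifs. The Vil1 stretch held GGGCGG once and GGGNGTGG on both strands, motifs found in 32.7% and 15.9% of promoters. The Cdhr2 stretch matched none of the 6, nor did any of the 10 listed promoters of 8 members hold the HNF4A motifs, which 0.384% and 5.49% of promoters held. Of these 10 promoters, 2 held TTTATG, those of Cdhr5 and Espn, and 1 held TTTATNA. GGGNGTGG was in 2, those of Espn and Vil1, and GGGCGG in 5. Espn fell by 0.25, close to the Vil1 fall. These matches describe letters only.

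Other genes of the brush border were read from lists drawn up by role. Apart from the digestive enzymes, the machinery around the microvillus held genes that fell and genes that rose. Over 8 lists, enzymes included, with 106 measured genes of 125 listed, 38 fell, 15 rose and 53 did not pass, with a median difference of -0.05. The enzymes gave 11 of the 38 falls and 0 of the 15 rises. Over all genes 12.0% fell and 16.3% rose, and by limma 17.3% were lower and 21.8% higher at an unadjusted p below 0.05. The share of list genes that rose was close to that of all genes, and each list count below stands beside these shares. With cyclic loess 50 fell and 6 rose, where 14.6% of all genes fell and 13.8% rose. Without the 3 arrays with low hybridization controls 32 fell and 7 rose, where 7.30% of all genes fell and 10.9% rose. Of the 53 list genes called in the main fit, 24 had other probe sets. Among those 24, 16 had another probe set with the same call and 2 another with the opposite call.

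Of 19 measured genes of the actin core and its assembly, 7 fell, 2 rose and 10 did not pass (median -0.07). Avil, 1 of the 7, is also listed as a tuft cell marker, and the part of other cell types in these falls was not tested. The actins themselves did not pass: Actb stood at 13.00 ± 0.01 in the knockout and 13.01 ± 0.01 in wild type (SD, n = 4), and Actg1 differed by 0.002. Actb lay near the highest signal on any array, 13.38, and whether differences are compressed there was not tested. Relatives of Eps8 fell, Eps8l3 by 0.55 (SE 0.07, adjusted p = 0.000158) and Eps8l2 by 0.52 (SE 0.06, adjusted p = 0.000175). The bundler Fscn1 fell by 0.87 by its brightest probe set (adjusted p = 0.000183), but its other 3 probe sets were not called, and the mean of all 4 differed by -0.14 (adjusted p = 0.105). Cobl, an actin nucleator of the brush border named after its value was seen, fell by 0.32 (adjusted p = 0.00269). The actin monomer binding gene Pfn1 rose by 0.21 (adjusted p = 0.00384) and the pointed-end capper Tmod3 by 0.18 (adjusted p = 0.0223). With cyclic loess normalisation neither rise passed, Pfn1 at 0.11 (adjusted p = 0.0818) and Tmod3 at 0.11 (adjusted p = 0.166). Without the 3 arrays with low hybridization controls neither passed (adjusted p = 0.0637 for Pfn1 and 0.115 for Tmod3). The Tmod3 call was lost under 10 of 21 alternatives (adjusted p of 0.0505 to 0.166), among them quantile normalisation (0.13), epithelial centring (0.16), the hybridization covariate (0.17), the replicate block (adjusted p = 0.0546) and leaving out wild-type replicate 1 (0.18) or 3 (0.15) or knockout replicate 1 (0.18) or 3 (0.17).

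Of 15 genes of membrane linkers, PDZ scaffolds and their kinases, 7 fell, 2 rose and 6 did not pass (median -0.16). Pdzk1, a PDZ scaffold that holds transporters in the apical membrane, had the largest fall of all the lists. Its knockout samples read 7.49, 7.34, 7.38 and 6.996, below the wild-type readings of 9.23, 9.51, 9.51 and 9.23. It fell by 2.07 (SE 0.11, adjusted p = 1.07e-06), to 23.8% of the wild-type signal. Clic5, found with ezrin in microvilli, fell by 0.55 (SE 0.06, adjusted p = 7.75e-05). Slc9a3r1, the scaffold EBP50 that binds ezrin, was named after its value was seen and fell by 0.47 (SE 0.06, adjusted p = 0.000346). Msn, the ezrin relative abundant in leukocytes, fell by 0.73 (SE 0.09), in samples where 8 of 8 T lymphocyte markers fell; the part of these cells in it was not tested. Nf2, the ezrin-related merlin, rose by 0.35 (adjusted p = 0.00110) and the small GTPase Rap2a by 0.27 (adjusted p = 0.0178). The Rap2a call was lost under 4 of 21 alternatives: averaged probe sets (0.13, adjusted p = 0.113), leaving out the 3 arrays (adjusted p = 0.0533), the hybridization covariate (0.0654) and an unmoderated model (0.0739).

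Of 7 measured partners of the intermicrovillar complex and their inner-ear relatives, limma called 0 in either direction, and 1, Calml4, was lower at an unadjusted p below 0.05. However, 3 of the 7, Cdh23, Pcdh15 and Cdhr1, were dimmer than the median probe set in knockout and wild type, where RMA compresses differences. Calml4, a light chain of Myo7b, was at 11.36, 11.35, 11.40 and 11.34 in the knockout and at 11.55, 11.57, 11.45 and 11.41 in wild type, with a difference of -0.13 (SE 0.05, adjusted p = 0.0850). Anks4b, a scaffold of the same complex, was at 9.15, 9.06, 9.07 and 8.90 in the knockout and at 9.02, 9.02, 8.88 and 8.84 in wild type. Its groups overlapped, with a difference of 0.10 (SE 0.07, adjusted p = 0.322).

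Of 13 other myosins and light chains, 1 fell, 0 rose and 12 did not pass, with 0 higher at an unadjusted p below 0.05. The gene that fell was Myo1e, by 0.71 (SE 0.06, adjusted p = 2.54e-05); the recycling motor Myo5b differed by 0.05 (SE 0.10) and Myo6 by 0.08 (SE 0.05). Of 10 genes of the terminal web and keratins, 1 fell and 3 rose (median 0.03). The cytolinker Plec fell by 0.53 (SE 0.06, adjusted p = 6.88e-05), while the keratins Krt18 and Krt19 rose by 0.26 (adjusted p = 0.00200) and 0.22 (adjusted p = 0.00350), the second not passing with cyclic loess (0.12, adjusted p = 0.0730). Actn1 rose by 0.20 (adjusted p = 0.0169), and lost its call under 4 of 21 alternatives, with a difference of 0.04 when its probe sets were averaged (adjusted p = 0.569).

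Of 18 genes of apical trafficking and polarity, 5 fell, 5 rose and 8 did not pass. Dnm2 fell by 0.69 (SE 0.07), the polarity gene Pard6b by 0.69 (SE 0.08) and Stx3, the apical syntaxin, by 0.25 (SE 0.05). Of the 6 other Dnm2 probe sets 3 fell as well and 0 were called the other way. Prkci rose by 0.24 by its brightest probe set (SE 0.05, adjusted p = 0.00425), while its other probe set was not called. Rab11a and Cdc42 rose by 0.23 and 0.17 by their brightest probe sets, but another probe set of each was called the other way, at -0.31 and -0.36, so their direction is not settled. The Cdc42 call was lost under 8 of 21 alternatives (adjusted p of 0.0507 to 0.262), among them those without wild-type replicate 3 (0.16) or 4 (0.17) and without knockout replicate 1 (0.15), and that of Stx3 without the 3 arrays with low hybridization controls (-0.17, adjusted p = 0.127). Of 13 apical surface and raft genes, 6 fell, 3 rose and 4 did not pass. Ceacam20, a microvillar membrane protein, was at 9.73, 9.64, 9.56 and 9.61 in the knockout and at 10.74, 10.78, 10.77 and 10.58 in wild type, and fell by 1.08 (SE 0.06, adjusted p = 1.23e-06). Tmigd1, an adhesion molecule of the enterocyte, fell by 0.45 (SE 0.05) and the membrane mucin Muc13 by 0.41 (SE 0.05). Anxa13 rose by 0.40 (SE 0.07), Lgals3 by 0.38 (SE 0.05) and Mal2 by 0.23 (SE 0.06), the last with its call lost under 5 of 21 alternatives: quantile normalisation (adjusted p = 0.0514), cyclic loess (0.114), leaving out the 3 arrays (0.101), the hybridization covariate (0.0809) and an unmoderated model (0.0533).

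The digestive enzymes anchored in the same membrane fell throughout: 11 of 11 measured were lower, with a median of -0.73 and a range of -1.52 to -0.30. The Cdhr2 fall was within the range of these enzymes, of which Mep1a fell by 1.28 (SE 0.09), Xpnpep2 by 1.16 (SE 0.07) and Anpep by 0.87 (SE 0.06).

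**Figure D3:**
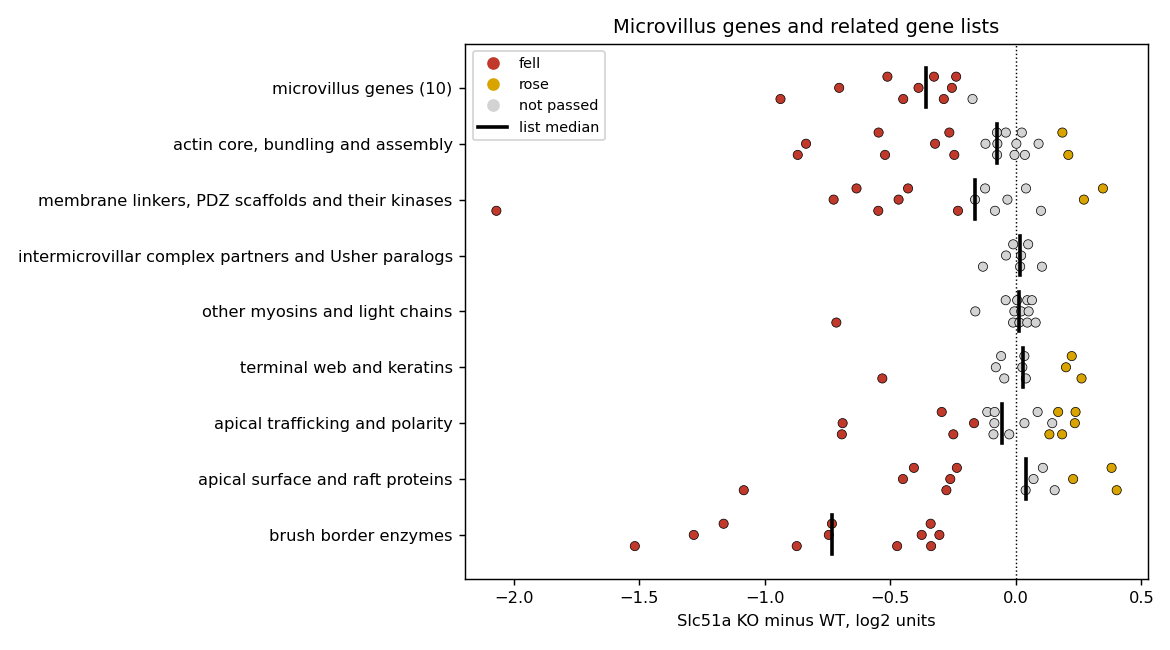
Difference in log2 signal (horizontal axis, Slc51a knockout minus wild type) of the 10 microvillus genes and of the genes of 8 related lists, 1 point per gene; red marks genes that fell, yellow genes that rose and grey genes that did not pass, and the bar is the list median. The microvillus genes (median -0.36) and the brush border enzymes (median -0.73) lie to the left of 0, while the other lists have medians between -0.16 and 0.04.

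Markers of the cells in the tissue give the setting of these falls. Each marker count is to be read beside all genes, of which 12.0% fell and 16.3% rose. By limma 17.3% of all genes were lower at an unadjusted p below 0.05. The 10 epithelial markers averaged 11.18 to 11.22 in the knockout samples and 11.13 to 11.21 in the wild-type samples. Within that list 2 fell, 3 rose and 5 did not pass. Cldn7 fell by 0.25, close in size to the Vil1 difference of -0.24, and Cdh1 by 0.16, while Epcam differed by -0.12 (adjusted p = 0.0810). Esrp1 rose by 0.47, the largest change of the list, Krt18 by 0.26 and Krt19 by 0.22. The list mean differed by 0.02. With every array set to the mean of these markers, 10 of 10 microvillus genes fell, where 14.0% of all genes fell and 14.2% rose, with Vil1 at -0.26, Ush1c at -0.20 (adjusted p = 0.0389) and Cdhr2 at -0.96. Villus enterocyte markers averaged 10.79 to 11.11 in the knockout and 11.15 to 11.29 in wild type, with 5 of 8 lower and 1 higher. Crypt and proliferation markers averaged 8.46 to 8.58 in the knockout and 8.29 to 8.40 in wild type, with 3 of 8 higher and 1 lower. That average holds both directions, with differences from -0.31 to 0.79. By limma 4 were higher and 3 lower at an unadjusted p below 0.05, where 21.8% of all genes were higher. Smooth muscle markers averaged 8.33 to 8.59 in the knockout and 9.10 to 9.51 in wild type, 10 of 10 being lower, and T lymphocyte markers averaged 5.88 to 6.24 in the knockout and 7.50 to 7.74 in wild type. Tuft cells also contain villin and fimbrin, and of their 6 markers 2 fell, the list averaging 4.80 to 4.89 in the knockout and 5.03 to 5.27 in wild type. These averages rest largely on Rgs13, which fell by 1.28, while the rest differed by -0.27 (Avil) to 0.06 (Il25). Of the remaining lists, 3 of 4 B lymphocyte, 2 of 4 endothelial and 1 of 5 myeloid markers fell, 2 of 5 goblet markers fell and 1 rose, and 3 of 6 enteroendocrine and 1 of 5 fibroblast markers rose. Limma called 0 of 3 Paneth markers, 2 being lower at an unadjusted p below 0.05, and 0 of 4 mesothelial markers, with 0 at that level; the 4 mesothelial markers were dimmer than the median probe set in knockout and wild type. The part of these marker differences in the microvillus results was not tested. The 3' minus 5' signal of the Actb control was 0.42 to 0.47 in the knockout and 0.38 to 0.47 in wild type (2-sided exact permutation p = 0.314), and that of Gapdh was 0.059 to 0.21 in the knockout and 0.18 to 0.34 in wild type (p = 0.0571 by the same exact test).

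**Figure D4:**
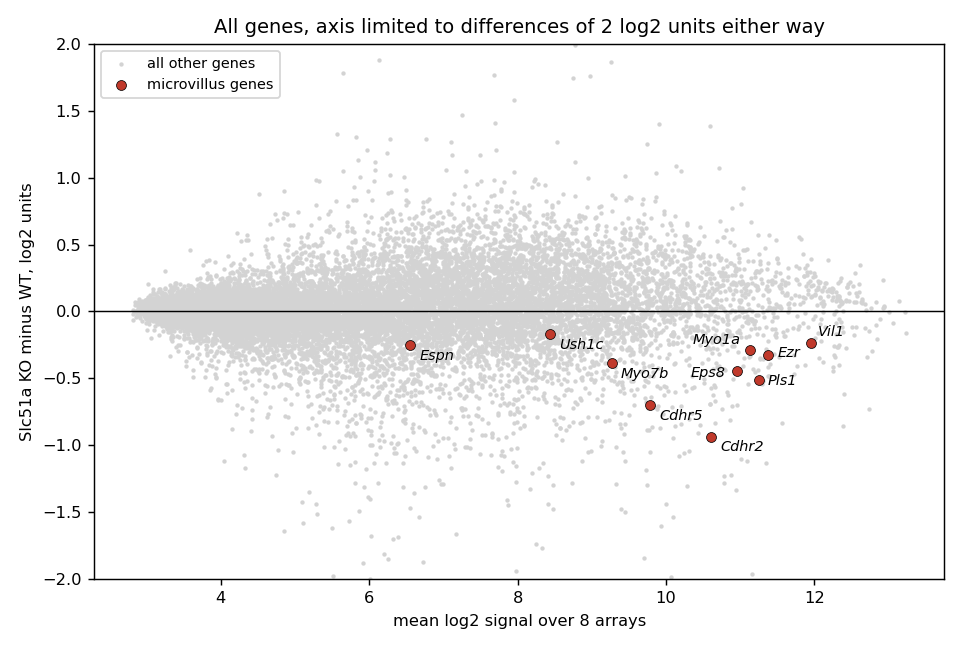
Difference in log2 signal (vertical axis, Slc51a knockout minus wild type) against the mean log2 signal over 8 arrays (horizontal axis) for all 17097 genes in grey and the 10 microvillus genes in red. The axis ends at 2 log2 units either way, which leaves out 32 genes; the microvillus genes lie below 0, Espn being the dimmest and Vil1 the brightest.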

How the data were processed

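The authors deposited log2 signals per probe set, which they made with RMA per the submitters' processing notes; no software version is given there. This method subtracts background, brings the arrays to a common distribution and combines probes, which compresses low signals. The table gives no detection calls, and no scan batch is known. Of 45141 probe sets 104 were controls, 28898 of the rest had 1 gene symbol and 551 had several. Of the 28898, 28689 were matched by gene identifier to RefSeq of GRCm38.p6, whose symbol was then used. The comparison was fitted in R 4.3.3 with limma 3.58.1 (eBayes, 2-sided), with Benjamini-Hochberg adjustment over 45037 probe sets and no filter on dim ones. Precision is limited by the 4 arrays of each genotype. Replicates are numbered as biological in the labels. The microvillus genes, lists and tests were chosen with earlier results of these data known. Named genes were all members, Slc51a and, of each list, up to 3 that rose and 3 that fell with the smallest adjusted p. Actb, Actg1, Cobl, Slc9a3r1, Calml4, Anks4b, Cdh23, Pcdh15, Cdhr1, Myo5b, Myo6, Cldn7, Cdh1, Epcam, Esrp1, Avil, Rgs13 and Il25 were named after their values were seen. Listed genes without a single symbol were not analysed here. Same-numbered samples deviated together with correlations of -0.10 to 0.24, and 3 of 4 knockout samples correlated best with the wild-type sample of their own number. Whether the numbers mark pairs or a shared batch was not tested. They were not taken as pairs in the main fit, and a replicate block was run as an alternative. On simulated data for this comparison of 45037 probe sets, 50 probe sets were changed at each size. Of these, 18% of changes of 0.25, 82% of 0.5 and 100% of 1 on the log2 scale were recovered, with 6 false calls. Far fewer probe sets changed there than the 4417 lower and 5312 higher called in the data. The adjusted threshold was therefore stricter in the simulation, and its recovery rates and false calls do not carry over to the data. Marker lists covered 14 cell types. Alternatives were a dim filter, other normalisations, centrings, priors, weights, thresholds, probe set summaries, a replicate block, hybridization controls and leaving out arrays. Figures were drawn with matplotlib 3.10.9.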

Additional observations from a re-analysis of the deposited data

Results flagged for a closer look

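Among 86 groups of 4 samples examined for a sample far from the others, 3 had one, where chance flags about 1 in 20. Cdhr5 in wild-type replicate 2 was at 10.35, with the other wild-type samples at 10.06 to 10.07. Plec in wild-type replicate 2 was at 10.13, with the others at 9.96 to 9.99, and Muc13 in knockout replicate 3 was at 11.47, with the others at 11.58 to 11.59.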

How the results depend on the processing

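The count of 9 microvillus genes that fell was 9 or 10 under every alternative run except centring on Vil1, and Vil1, Ezr, Espn, Pls1, Myo1a, Myo7b, Cdhr2, Cdhr5 and Eps8 kept their direction and their call under each alternative other than that centring. Ush1c passed with 1 probe set per gene (-0.17, adjusted p = 0.0440), the mean of probe sets (-0.17, 0.0367), without dim probe sets (-0.17, 0.0430), with eBayes trend and robust (-0.17, 0.0487), at a threshold of 0.1 (-0.17), with quantile normalisation (-0.22), cyclic loess (-0.25), centring on epithelial markers (-0.20), the hybridization covariate (-0.22) and without wild-type replicate 4 (-0.21, adjusted p = 0.0260). Set to Vil1, Ush1c was at 0.065, and Ezr (-0.088), Espn (-0.017) and Myo1a (-0.049) did not pass. Leaving out 1 array gave 9 to 10 members lower, 35 to 38 list genes lower and 11 to 14 higher, and Ush1c from -0.21 to -0.14. The 4417 probe sets lower and 5312 higher became 2210 and 2924 with 1 probe set per gene, 2046 and 2881 with gene means (fewer features tested), 2508 and 3435 without the 3 arrays with low hybridization controls (fewer samples) and 2631 and 3494 at a threshold of 0.01; 2936 were lower in an unmoderated model. More were lower than higher with epithelial centring (5357 and 4575) and cyclic loess (5151 and 4657). List genes that rose numbered 6 with cyclic loess, 7 without the 3 arrays, 9 with the hybridization covariate and 8 at 0.01, against 15; the cause was not tested. Rab11a (-0.036) and Cdc42 (-0.096) turned with the mean of their probe sets, which disagree. The replicate block, with numbers that were not shown to pair, gave 4576 lower and 5331 higher, and Ush1c an adjusted p of 0.0621; 3 of 4 knockout samples correlated best with the wild-type sample of their own number.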
